A study of Mus musculus with 28 samples.

Results

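Corticosterone treatment was compared with vehicle treatment after auditory fear conditioning, across all expressed genes of the mouse dorsal hippocampus. The comparison was chosen by the library titles: 5 libraries titled Cort (Cort 4, 11, 17, 30 and 36) and 4 titled Vehicle (Vehicle 3, 16, 23 and 29), or 9 of the 28 libraries of the series, each named here by its group and the sample number in its title. Both groups were male mice of the strain C57Bl6, both went through the conditioning, a task that pairs a tone with a shock, and the vehicle group received no ligand. Cort is the usual abbreviation of corticosterone. No mutation or transgene is named for either group, and the sources used here do not give the dose, the time of tissue collection or the age of the mice. The other 4 groups of the series also entered the model: Basal mice, with neither conditioning nor treatment (n = 4), and conditioned mice given the receptor antagonist RU486 or a compound known here by code name, C108 or C118 (n = 5 each). Conditioning is itself a stressor that releases corticosterone, and both groups compared went through it.

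Corticosterone is the main glucocorticoid of rodents. It binds the mineralocorticoid receptor (gene Nr3c2) with high affinity and the glucocorticoid receptor (gene Nr3c1) at the higher levels reached under stress, and both are dense in hippocampal neurons. The occupied receptors enter the nucleus and bind glucocorticoid response elements, inverted repeats of a short site, or act through other transcription factors. Hormone present around the time of aversive learning is known to modulate how well the experience is remembered.

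4 promoter windows are shown. They belong to Rbm24, the gene that passed the test, Fkbp5 and Sgk1, textbook targets of the receptor, and Plk2, an activity-induced kinase. Plk2 lies outside the rule for named genes and was picked for its motif after the values were seen. Each window is the 250 bases before the annotated start in RefSeq, build GRCm38.p6, written 5′ to 3′ on the strand of the gene. Capitals mark the short site AGAACA on either strand, the full element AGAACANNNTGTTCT, which holds it in inverted repeat, and the cyclic AMP response element TGACGTCA, which CREB binds.
Rbm24: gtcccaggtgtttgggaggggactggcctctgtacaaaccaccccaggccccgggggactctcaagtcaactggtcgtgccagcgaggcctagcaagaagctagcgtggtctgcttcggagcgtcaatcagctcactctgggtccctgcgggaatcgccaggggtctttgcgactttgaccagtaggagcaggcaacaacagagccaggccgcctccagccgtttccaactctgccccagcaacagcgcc
Fkbp5: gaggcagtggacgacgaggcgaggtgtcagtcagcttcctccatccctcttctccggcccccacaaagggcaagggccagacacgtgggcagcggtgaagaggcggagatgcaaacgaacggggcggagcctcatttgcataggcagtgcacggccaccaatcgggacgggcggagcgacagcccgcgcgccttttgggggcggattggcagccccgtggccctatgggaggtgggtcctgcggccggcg
Sgk1: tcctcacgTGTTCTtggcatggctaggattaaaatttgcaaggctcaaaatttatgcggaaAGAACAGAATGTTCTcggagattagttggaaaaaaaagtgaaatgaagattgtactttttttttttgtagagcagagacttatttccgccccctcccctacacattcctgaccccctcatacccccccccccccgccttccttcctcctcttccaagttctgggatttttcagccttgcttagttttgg
Plk2: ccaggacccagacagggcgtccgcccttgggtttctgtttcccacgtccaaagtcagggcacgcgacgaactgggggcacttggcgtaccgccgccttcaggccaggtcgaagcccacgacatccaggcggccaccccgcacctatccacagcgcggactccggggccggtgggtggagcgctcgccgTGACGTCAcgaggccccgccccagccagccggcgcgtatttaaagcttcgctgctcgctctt
The Rbm24 window is chr13:46418050-46418299 (plus strand), and it holds none of these motifs. The Fkbp5 window, chr17:28486150-28486399 (minus strand), holds none of them either and has 3 GC boxes (GGGCGG, either strand). Sgk1 has 6 windows, one per annotated start, of which chr10:21993640-21993889 (plus strand) is shown. This window was picked because it holds the full element. It has the full element at -189, counted from the annotated start of that window, and another short site at -242. The Plk2 window, chr13:110394794-110395043 (plus strand), has the cyclic AMP response element at -62. A match is a string of letters, and no match speaks for this window alone.

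The full element was found in 3 of all 32851 windows (0.00913%) and in 1 of the 50 windows of the listed receptor targets, the one shown. The short site was in 16.1% of all windows, 10.9% of those of tested genes and 16% of those of the listed targets. It was in 7.63% of the 262 windows of genes whose Cort libraries all lay above the Vehicle libraries, and in 10.2% of the 225 windows of genes whose Cort libraries all lay below. The cyclic AMP response element stood in 5 of the 44 windows of immediate early genes (11.4%), against 1.55% of all windows and 2.44% of those of tested genes. These shares are given as a description, with no test.

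The 9 libraries were deep and alike in size, with 19.02 to 20.03 M gene counts in Cort and 18.62 to 19.14 M in Vehicle (M, 10 to the power of 6). Levels are in CPM, counts per 10 to the power of 6, with each library's size corrected by the TMM method of edgeR. Markers of the dentate gyrus, CA1 and CA3, the fields of the hippocampus, were counted in every library, and of all marker lists the member Tmem212, a gene of ciliated ependyma, was the only gene at 0 in a library. Mitochondrially encoded genes took 5.80% ± 1.40 of the gene counts in Cort (SD, n = 5) and 7.90% ± 1.49 in Vehicle (SD, n = 4; exact permutation test, two-sided, p = 0.07937, adjusted over 8 library measures p = 0.2963; the smallest p the design allows is 0.01587). Tissue markers set single libraries apart. Vehicle 29 had the lowest summed dentate gyrus markers, 1539 CPM against 2116 to 2208 CPM in the other Vehicle and 2152 to 2528 CPM in the Cort libraries, and Vehicle 16 the lowest summed CA1 markers, 572 CPM against 999 to 1242 CPM in the other 8. Vehicle 16 also had the highest summed thalamus markers (1411 CPM, with 477 to 888 CPM in the others), and both libraries had the highest neocortex markers, 782 and 730 CPM, with 622 to 723 CPM in the other 7. In bulk tissue, fewer cells of a type and less RNA per cell cannot be told apart. Their part in the results was not tested, except where values without these libraries are given. The labels do not say that each library came from a separate mouse, so p-values measure the spread between libraries. In edgeR that spread was estimated within the 6 groups of all 28 libraries, not from these 9 alone.

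Few genes separated the groups beyond that spread. In edgeR 1 of 16735 tested genes passed, Rbm24, which rose (0.00598% called higher), and 0 were called lower (0%). At an unadjusted p under 0.05 there were 1947 genes (11.6%), 1019 higher in Cort (6.09%) and 928 lower (5.55%). The groups did not overlap in 494 genes (2.95%), with Cort above in 268 (1.6%) and below in 226 (1.35%). DESeq2, run on the same counts, called 45 genes higher (0.28%) and 40 lower (0.249%) of the 16085 to which it gave an adjusted p.

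Most differences were small. The median log2 fold change of Cort over Vehicle was 0.005 over all tested genes, and the median of its size was 0.124. For 14938 genes (89.3%) the 95% interval lay within 1 of 0 on the log2 scale, and for 10386 (62.1%) within 0.5. Of the genes at an unadjusted p under 0.05, 1536 had a fitted size under 0.5, and 102 genes in all had a size of at least 1. The spread was alike in both groups, with a median SD of log2 CPM of 0.181 in each. The plot of all tested genes gives fold change against p.

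**Figure D1:**
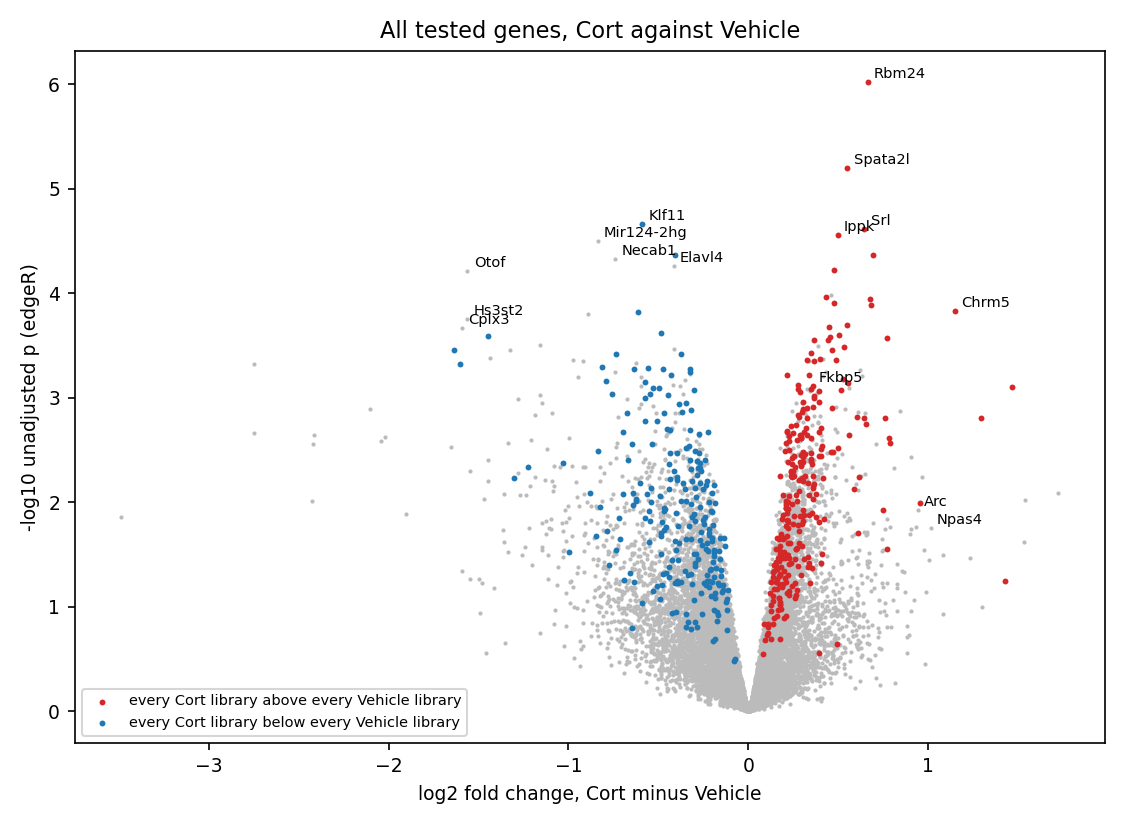
Each point is 1 of 16735 tested genes: the x axis is the log2 fold change of Cort over Vehicle and the y axis the negative log10 of the unadjusted edgeR p. Red points (268) have every Cort library above every Vehicle library and blue points (226) every Cort library below. Rbm24 stands highest, and the genes with the largest negative fold changes are mostly grey, so that their groups overlap.

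Rbm24, an RNA-binding protein that directs splicing in heart and skeletal muscle (chromosome 13, 46418434 to 46431095, GRCm38, plus strand), stood at 16.6, 18.01, 18.3 and 11.4 CPM in Vehicle 3, 16, 23 and 29. It stood at 28.3, 23.3, 23.1, 26.4 and 26.2 CPM in Cort 4, 11, 17, 30 and 36. All 5 Cort values exceeded all 4 Vehicle values, and Vehicle 29 was the lowest of all. The log2 fold change was 0.66 ± 0.11 (SE) with a 95% interval from 0.44 to 0.88 (edgeR adjusted p = 0.0159). The 4 Basal libraries lay between 19.9 and 25.03 CPM, above every Vehicle library and partly within the Cort range. Mean levels in the other conditioned groups were 19.3 ± 1.05 (RU486), 20.8 ± 1.12 (C108) and 20.1 ± 2.27 CPM (C118; SD, n = 5 each), so that Vehicle had the lowest and Cort the highest mean of the 6 groups. The call was lost in edgeR without Vehicle 29 (fold change 0.53, edgeR adjusted p = 0.0856), without Cort 4 (0.61, adjusted p = 0.0769) and without Cort 30 (0.64, adjusted p = 0.0626), and in a fit of the 9 libraries alone (0.66, adjusted p = 0.496).

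The 12 genes with the smallest p in each direction are described next: 1 of them passed in edgeR, and DESeq2 called all 24. Since the 24 were picked by p on the same counts, the DESeq2 calls are no independent check. Among the 12 with higher levels, which ran from 0.43 to 1.15 on the log2 scale, the Cort libraries all lay above the Vehicle libraries in 11. Vehicle 29 was the lowest Vehicle library in 9 of the 12. Without Vehicle 16 and Vehicle 29 all 12 kept a higher level in Cort and an unadjusted p under 0.05. The edgeR adjusted p was then 0.67 for Rbm24 and 0.995 for each of the others. Since the 12 were picked by p with the same libraries included, this is no independent check.

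Genes of inositol phosphate metabolism were among them. These enzymes add phosphates to the inositol ring or remove them, and the products with the most phosphates serve as cofactors and signals. Ippk, the kinase that completes inositol hexakisphosphate, stood at 43.9, 40.6, 48.5 and 29.8 CPM in Vehicle and 49.1, 52.01, 65.5, 59.9 and 60.7 CPM in Cort, in the library order given for Rbm24. The groups did not overlap, though Cort 4 and Vehicle 23 nearly met, and the fold change was 0.50 ± 0.10 (SE) (edgeR adjusted p = 0.0853). Ippk lies at chromosome 13, 49421249 to 49464573, where the gene Cenpp lies on the other strand.

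Ip6k2 is a kinase that adds a phosphate to that product and so forms a pyrophosphate. It stood at 119, 104, 116 and 106 CPM in Vehicle and 141, 145, 147, 159 and 178 CPM in Cort. The 4 Vehicle libraries lay close together and well below the Cort libraries, and the fold change was 0.47 ± 0.11 (SE) (edgeR adjusted p = 0.126). Inpp5j, a phosphatase of inositol phosphates and phosphoinositides, was fitted at 0.53 ± 0.13 (SE), and Ipmk, the inositol polyphosphate multikinase, at 0.23 ± 0.07 (SE). In both, all Cort libraries lay above all Vehicle libraries, from 130 to 156 against 61.0 to 123 CPM for Inpp5j and from 54.9 to 65.1 against 48.2 to 54.6 CPM for Ipmk. Of the 23 tested enzymes of the list, 0 passed, 5 had a higher and 1 a lower level at an unadjusted p under 0.05, the groups did not overlap in 4, and the median fold change was 0.05. Their summed level was 1675 to 1761 CPM in Cort and 1423 to 1612 CPM in Vehicle. DESeq2 called 3 members higher. Over all tested genes 6.09% were higher and 5.55% lower at an unadjusted p under 0.05, and the groups did not overlap in 2.95%. DESeq2 called 0.28% higher. The list was chosen with earlier results of these data known and holds Ippk and Ip6k2, so its counts are no independent support.

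Tiam2, an exchange factor that activates the GTPase Rac, stood at 33.7, 41.6, 33.9 and 32.2 CPM in Vehicle and 45.1, 44.02, 47.02, 50.6 and 58.97 CPM in Cort (fold change 0.47 ± 0.10, SE, edgeR adjusted p = 0.0853). Fmnl1, a formin that extends actin filaments, ranged from 98.5 to 126.2 CPM in Vehicle and from 138 to 219 CPM in Cort (0.55 ± 0.13, SE). Jdp2, a repressor of the AP-1 family, stood at 27.99, 28.5, 31.6 and 16.99 CPM in Vehicle and 38.9, 42.5, 34.3, 46.1 and 48.95 CPM in Cort (0.68 ± 0.15, SE, edgeR adjusted p = 0.126). In all 3 genes the groups were apart, and Vehicle 29 was lowest.

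Chrm5, a muscarinic acetylcholine receptor, had the largest fold change of the 12 and the lowest counts: 4.08, 1.03, 2.57 and 2.76 CPM in Vehicle and 5.01, 4.76, 6.04, 6.23 and 6.96 CPM in Cort. The groups were apart, Vehicle spread widely, and the 4 Basal libraries lay at 1.33 to 1.88 CPM. The fold change was 1.15 ± 0.26 (SE) (edgeR adjusted p = 0.132). Adamts1, a secreted metalloproteinase, stood at 17.8, 17.6, 11.8 and 13 CPM in Vehicle and 24.4, 22.3, 22.8, 23.8 and 27.3 CPM in Cort (0.68 ± 0.15, SE, edgeR adjusted p = 0.126). Here Vehicle 23 was lowest, and the difference was as large without Vehicle 16 and Vehicle 29 (0.70).

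The other 4 were Spata2l (0.55 ± 0.10, SE, edgeR adjusted p = 0.0524), Srl, which encodes the calcium-binding sarcalumenin (0.65 ± 0.13, SE), Dnajb5, a DnaJ cochaperone (0.46 ± 0.10, SE), and Rilpl1, a Rab-binding protein of the cilium (0.43 ± 0.10, SE). Dnajb5 was the member of the 12 whose groups overlapped, with Vehicle 23 at 184 and Cort 11 at 182 CPM. Spata2l shares its locus with Cdk10 on the other strand, and its Basal level, 40.99 to 54.6 CPM, lay with the Cort libraries (39.2 to 51.9 CPM) and above the Vehicle libraries (26.4 to 33.2 CPM). Over the 12 genes, Vehicle had the lowest mean of the 6 groups in 10 and Cort the highest in 11. The 12 were picked for a higher level in Cort than in Vehicle, which by itself favours this order. The plot of levels per library shows 8 genes with their Basal level.

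**Figure D2:**
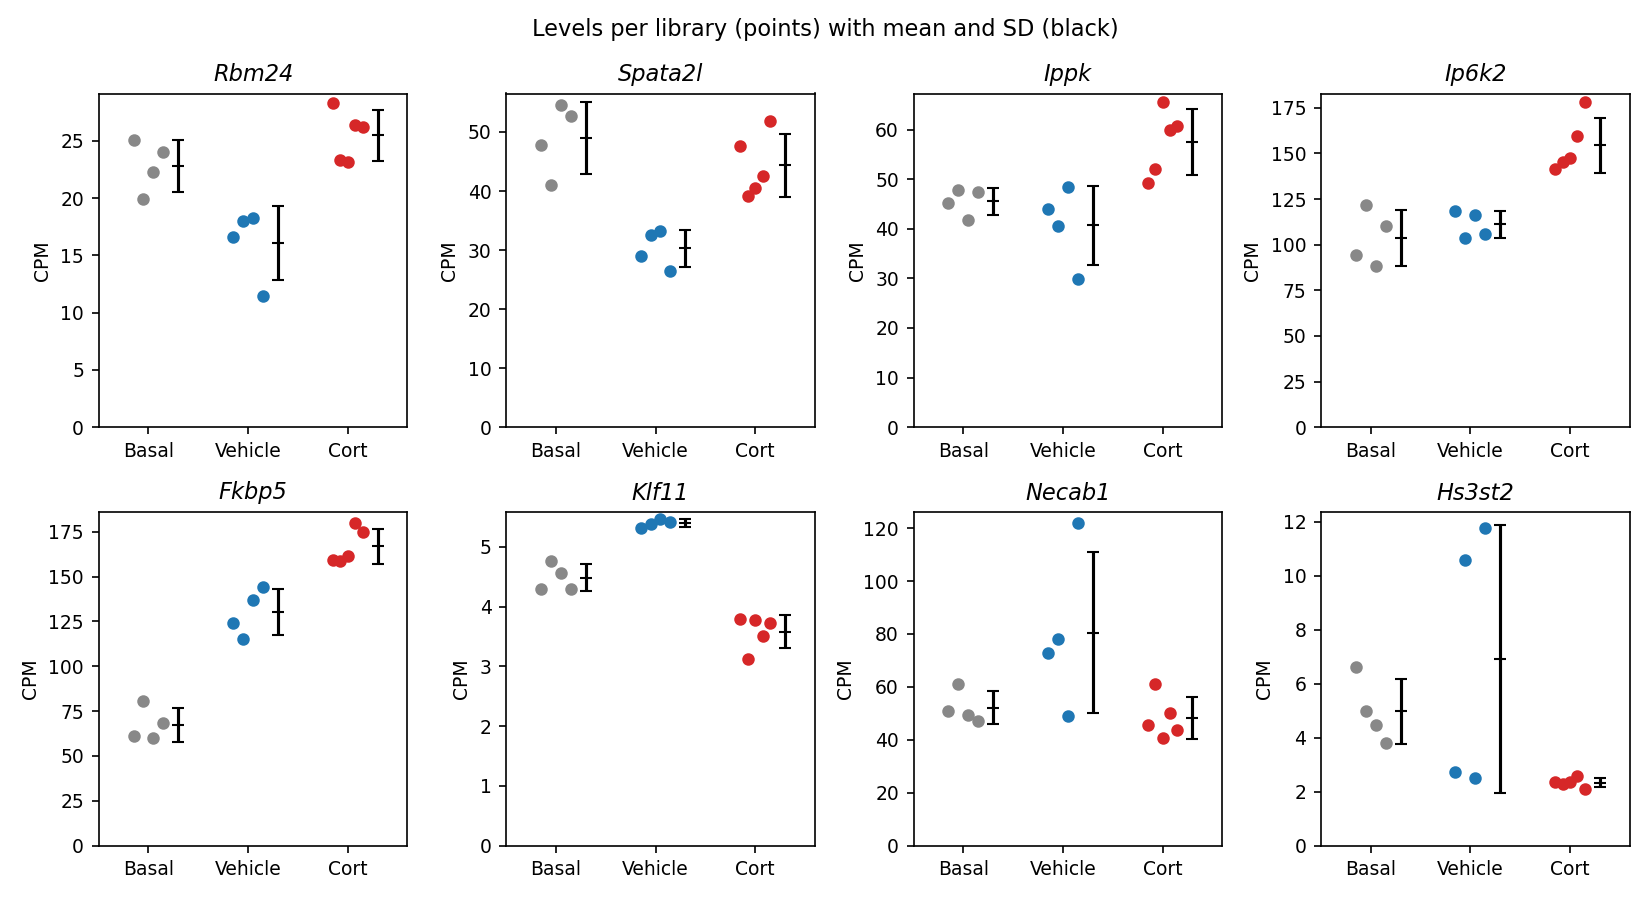
Levels in CPM (y axis, from 0) in Basal, Vehicle and Cort libraries for 8 genes; each point is a library and black bars give the mean and SD. Cort lies above every Vehicle library for Rbm24, Spata2l, Ippk, Ip6k2 and Fkbp5 and below for Klf11, while for Hs3st2 Vehicle splits into 2 libraries near 11 and 2 near 3 CPM.

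The 12 genes with the smallest p among those lower in Cort had fold changes from -1.60 to -0.41, and 0 passed. In 3 of them, Klf11, Ccdc138 and Sox5, every Cort library lay below every Vehicle library. Klf11, a Krüppel-like repressor induced by TGF-beta (chromosome 12, 24651274 to 24662789), stood at 5.32, 5.39, 5.47 and 5.42 CPM in Vehicle and 3.79, 3.12, 3.77, 3.51 and 3.73 CPM in Cort. The Vehicle libraries were nearly equal and clear of the Cort libraries, and the Basal libraries lay between them at 4.29 to 4.77 CPM. The fold change was -0.59 ± 0.12 (SE) (edgeR adjusted p = 0.0853), and it was -0.59 without Vehicle 16 and Vehicle 29 as well. Ccdc138, a coiled-coil gene, stood at 2.995, 3.44, 3.79 and 4.298 CPM in Vehicle and 2.097, 2.38, 2.37, 2.52 and 2.46 CPM in Cort (-0.62 ± 0.14, SE). Sox5, a transcription factor of deep-layer cortical neurons, lay at 18.01 to 30.5 CPM in Vehicle and 15.1 to 17.6 CPM in Cort (-0.49 ± 0.12, SE). Without Vehicle 16 and Vehicle 29 the fold change was -0.52 for Ccdc138 and -0.19 for Sox5.

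In the genes of the 12 with the largest negative fold changes, 1 or 2 Vehicle libraries were high. Hs3st2, a sulfotransferase of heparan sulfate, stood at 2.74, 10.6, 2.51 and 11.8 CPM in Vehicle and 2.35, 2.27, 2.37, 2.57 and 2.097 CPM in Cort. Vehicle 16 and Vehicle 29 were high, while Vehicle 3 and Vehicle 23 lay with the Cort libraries. The fold change was -1.56 ± 0.36 (SE) with all libraries (edgeR adjusted p = 0.14) and -0.17 without the 2 high ones. Otof, the calcium sensor otoferlin and a member of the neocortex list, stood at 1.34, 4.21, 1.23 and 5.22 CPM in Vehicle and 0.8695, 1.48, 0.619, 1.33 and 0.767 CPM in Cort, with the same 2 libraries high (-1.56 with all, -0.34 without the 2). Cplx3, a complexin of the synaptic release machinery, reached 13.7 CPM in Vehicle 29 against 1.498 to 3.95 CPM in the other Vehicle and 1.64 to 2.05 CPM in the Cort libraries (-1.60 with all, -0.21 without the 2). In 10 of the 12 genes both Vehicle 16 and Vehicle 29 exceeded Vehicle 3 and Vehicle 23. Without Vehicle 16 and Vehicle 29, 5 of the 12 kept an unadjusted p under 0.05, and all 12 stayed below 0. The edgeR adjusted p was then 0.995 for all 12, which were picked by p with the same libraries included. Of the 9 libraries, Vehicle 16 and Vehicle 29 had the highest summed neocortex markers, 782 and 730 CPM, on a list that includes Otof. The Basal libraries stood at 742.5 to 794.1 CPM, and their Cplx3 level was 1.48 to 3.18 CPM. The mean log2 score of the list was 0.47 in Vehicle 16, 0.39 in Vehicle 29 and 0.12 to 0.26 in Basal. A link between these markers and the 12 genes was not tested.

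Elavl4, the neuronal protein HuD that stabilises messenger RNAs, stood at 54.2, 59.9, 52.9 and 71.9 CPM in Vehicle and 41.3, 44.3, 43.7, 40.04 and 54.6 CPM in Cort (-0.41 ± 0.09, SE, edgeR adjusted p = 0.0853). Cort 36 lay among the Vehicle libraries and the other 4 Cort libraries below them. Necab1, a neuronal calcium-binding protein, stood at 72.9, 78.2, 48.97 and 122 CPM in Vehicle and 45.5, 61.3, 40.7, 50.02 and 43.7 CPM in Cort (-0.74 ± 0.15, SE). Vehicle 23 lay inside the Cort range, and Vehicle 29 stood highest. Mir124-2hg, a host transcript of the neuronal microRNA miR-124 whose mature form was not measured, lay at 10.8 to 23.4 CPM in Vehicle and 7.26 to 11.1 CPM in Cort (-0.84 ± 0.17, SE). The other 3 of the 12 were Efna5, an ephrin of axon guidance (-0.89 ± 0.20, SE), Tpbg, a membrane glycoprotein that inhibits Wnt signalling (-1.16 ± 0.28, SE), and Osbpl1a, an oxysterol-binding protein (-0.41 ± 0.10, SE), which without Vehicle 16 and Vehicle 29 were at -0.31, -0.11 and -0.05.

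Among the genes at an unadjusted p under 0.05 the same library stood out. Vehicle 29 was the Vehicle library farthest from Cort in 688 of the 1019 genes higher in Cort at an unadjusted p under 0.05 (67.5%) and in 517 of the 928 lower ones (55.7%). These genes were picked by p with Vehicle 29 in the fit, which by itself favours a library far from Cort. The same share over all tested genes is not given here. Without Vehicle 29 there were 1015 genes at an unadjusted p under 0.05 in either direction. Without Vehicle 16 and Vehicle 29 there were 518. On the main axes of variation of the 9 libraries, Cort 36 stood at 41.1 and Vehicle 16 at -31.7 on the first (27.3% of the variance), and Vehicle 29 at -50.1 on the second (22.8%), with the other 8 between -5.40 and 17.8.

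The lists of pathway and marker genes were read by their counts and medians. All tested genes give the base for these: 6.09% higher and 5.55% lower at an unadjusted p under 0.05, and a median fold change of 0.005. The plot of gene lists shows all 33.

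**Figure D3:**
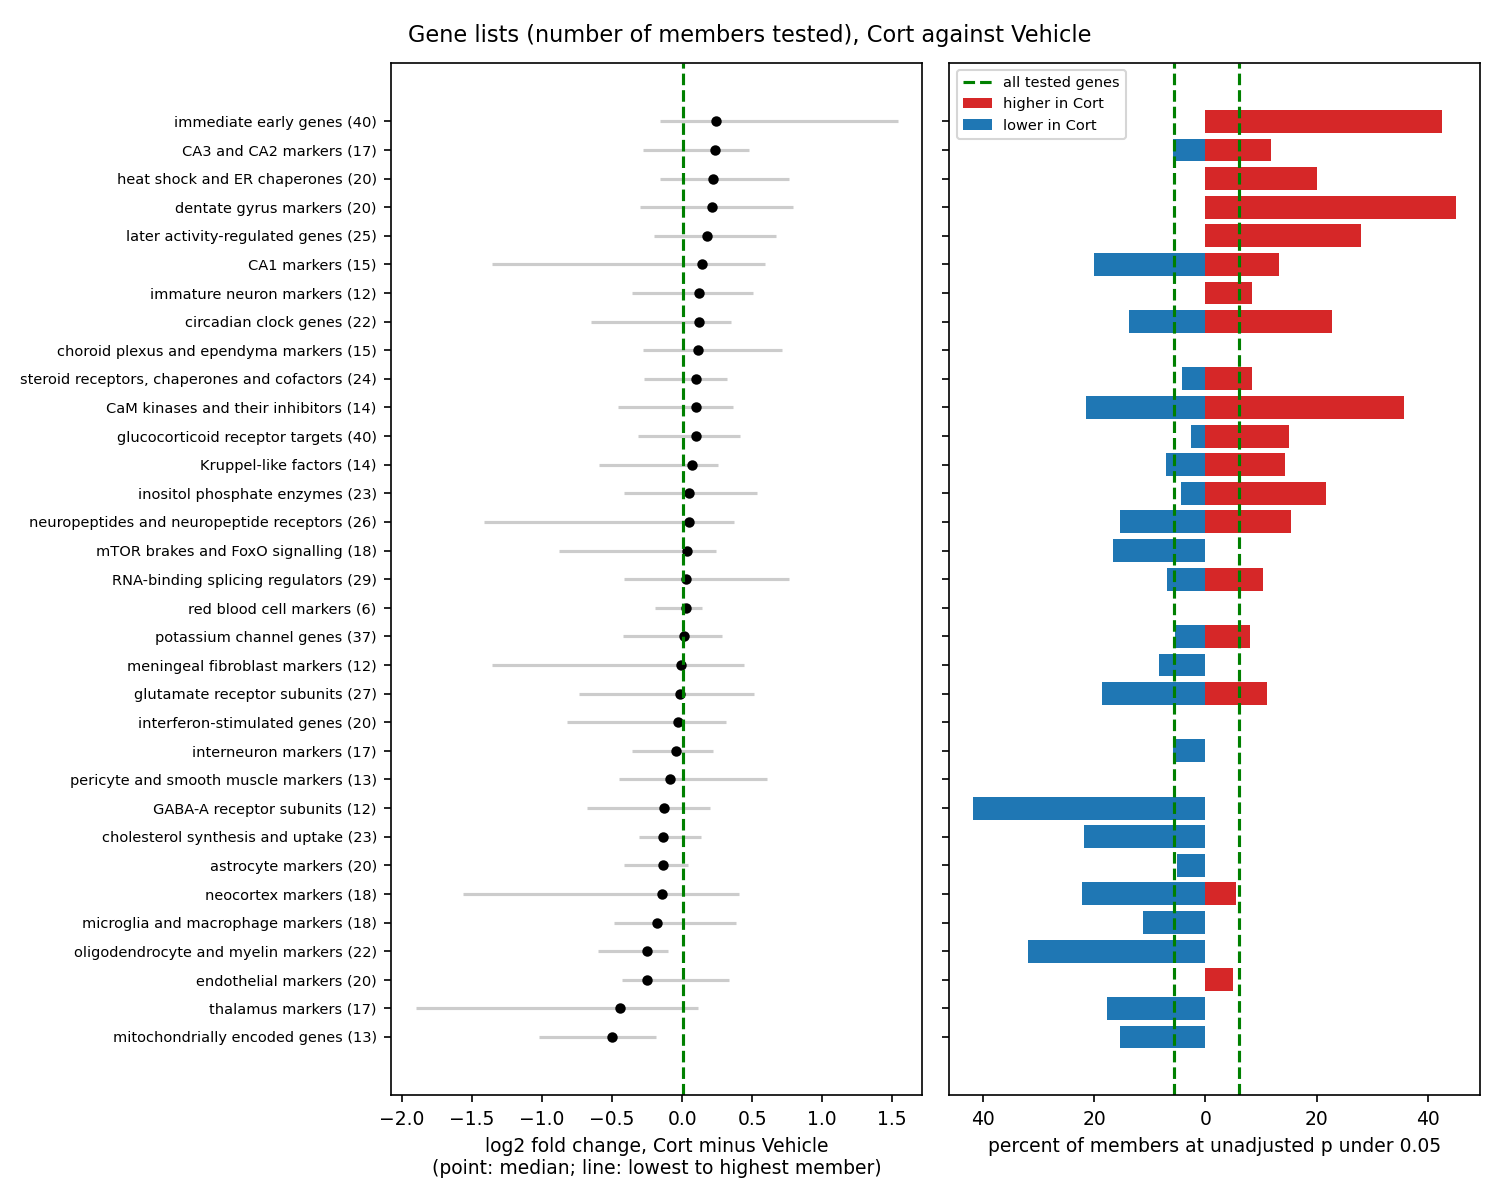
Left, the median log2 fold change of Cort over Vehicle (point) and the range from the lowest to the highest member (line) for each gene list, with the number of members tested. Right, the percent of members higher (red) or lower (blue) in Cort at an unadjusted p under 0.05; the dashed lines give the same over all tested genes. The dentate gyrus and immediate early lists reach 45% and 42.5% higher and 0% lower, and GABA-A subunits reach 41.7% lower.

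Of the 40 tested targets of the glucocorticoid receptor, 0 passed, 6 were higher and 1 lower at an unadjusted p under 0.05, and the median fold change was 0.10. That median was 0.02 without Vehicle 23, 0.03 without Cort 4, 0.04 without Cort 11 and 0.13 without Vehicle 3. It was 0.07 with the dentate gyrus score as a covariate and 0.06 without Vehicle 16 and Vehicle 29. In each of these last settings 1 member was higher at an unadjusted p under 0.05. Other alternatives were chosen after seeing the data. Without Vehicle 29 and Cort 4 the median was 0.01, with 1 member higher at that p. With the percent of mitochondrial counts as a covariate it was 0.21, with 38 of 40 members above 0 and 9 higher at that p. Fkbp5, the cochaperone that lowers the affinity of the receptor for its hormone (chromosome 17, 28399094 to 28517527), stood at 124, 115, 137 and 144 CPM in Vehicle and 159, 159, 162, 179.9 and 175 CPM in Cort. All 5 Cort values exceeded all 4 Vehicle values, and both groups lay well above the Basal libraries (59.9 to 80.6 CPM). The fold change was 0.36 ± 0.10 (SE) (edgeR adjusted p = 0.156), and across all alternatives it ran from 0.25 to 0.42. The other targets named by p were Bcl6, a transcriptional repressor (0.40 ± 0.13, SE), Errfi1, an inhibitor of the EGF receptor (0.31 ± 0.12, SE), and Cebpd, a C/EBP transcription factor (0.41 ± 0.18, SE).

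In 5 other well-known targets the 95% interval of the fold change included 0. Sgk1, a kinase that regulates ion channels, has the full element in 1 of its 6 windows. It stood at 198, 161, 129.8 and 143 CPM in Vehicle and 191, 128, 133, 158 and 148 CPM in Cort, fully overlapping. Its fold change was -0.06 ± 0.22 (SE), with a 95% interval from -0.51 to 0.40. Tsc22d3, the gene of GILZ, an anti-inflammatory leucine zipper, stood at 114, 117, 105 and 149 CPM in Vehicle and 146, 122, 95.5, 115 and 84.1 CPM in Cort (-0.11 ± 0.16, SE). The ranges overlapped, with Vehicle 29 highest and Cort 36 lowest. Cdkn1a, the cell-cycle inhibitor p21, stood at 51.8, 45.9, 40.2 and 39.6 CPM in Vehicle and 80.7, 49.5, 46.8, 55.4 and 41.9 CPM in Cort, with Cort 4 high (0.30 ± 0.28, SE). Plin4, a lipid droplet coat protein, was fitted at 0.19 ± 0.27 (SE), and Hif3a, a hypoxia-inducible factor, at -0.08 ± 0.25 (SE). For these 5 genes the Basal libraries lay lower, at 49.6 to 130.1 CPM for Sgk1, 38.1 to 63.2 CPM for Tsc22d3, 5.36 to 11.7 CPM for Cdkn1a, 0.531 to 2.14 CPM for Plin4 and 1.35 to 5.26 CPM for Hif3a, and for Sgk1 the highest Basal library reached into both groups.

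The receptors themselves showed small differences. Nr3c1 stood at 86.96, 78.4, 84.5 and 81.05 CPM in Vehicle and 83.6, 74.2, 79.5, 72.8 and 75.6 CPM in Cort (-0.10 ± 0.09, SE, edgeR adjusted p = 0.674). Nr3c2 stood at 344, 211, 306 and 182 CPM in Vehicle and 235, 291, 302, 291 and 381 CPM in Cort (0.20 ± 0.13, SE), with Vehicle 16 and Vehicle 29 below and Cort 36 above all others. Of the 24 tested receptors, chaperones and cofactors, 2 were higher and 1 lower at an unadjusted p under 0.05, with a median of 0.10. They included Ncoa1, a coactivator of steroid receptors (0.21 ± 0.10, SE), and Ppargc1a, a coactivator of mitochondrial genes (-0.27 ± 0.09, SE).

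Many immediate early genes, which neurons transcribe within minutes of strong activity, had higher fitted levels in Cort. Of the 40 tested, 0 passed, 17 were higher and 0 lower at an unadjusted p under 0.05, 33 had a fitted level above Vehicle (of all tested genes 51.1% lay above and 48.9% below), and the median was 0.24. The groups overlapped in all 40. Arc, a cytoskeletal protein of active synapses, stood at 63.3, 62.95, 99.5 and 56.1 CPM in Vehicle and 290.5, 88.1, 61, 129.6 and 107 CPM in Cort. Cort 4 was far above the rest, Cort 30 and 36 lay above all Vehicle libraries, and Cort 11 and 17 among them. The fold change was 0.94 ± 0.34 (SE) (edgeR adjusted p = 0.294).

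Transcription factors of the list followed a like order. Nr4a1, an orphan nuclear receptor, stood at 37.3, 28.9, 43.7 and 27.99 CPM in Vehicle and 90.4, 40.9, 32.6, 61.7 and 76.7 CPM in Cort (0.81 ± 0.26, SE). Cort 4, 30 and 36 exceeded every Vehicle library, and Cort 11 and 17 did not. Egr4, an early growth response factor, stood at 10.4, 6.67, 12.3 and 5.83 CPM in Vehicle and 21.5, 12.7, 7.897, 17.4 and 22.9 CPM in Cort (0.91 ± 0.28, SE), where Cort 11 also exceeded every Vehicle library. Egr1, a relative of it, was fitted at 0.66 ± 0.26 (SE), Fos, a subunit of AP-1, at 0.87 ± 0.41 (SE), and Npas4, a factor of inhibitory synapse formation, at 1.01 ± 0.40 (SE). Atf3, a stress-induced factor, stood at 0.878, 0.718, 1.28 and 0.461 CPM in Vehicle and 2.76, 0.899, 0.981, 1.48 and 1.995 CPM in Cort (0.96 ± 0.32, SE).

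Genes with smaller fold changes included Trib1, a pseudokinase (0.37 ± 0.12, SE), and Plk2 (0.31 ± 0.13, SE), at 243, 155, 270.0 and 201 CPM in Vehicle and 225, 230.1, 259.9, 277 and 355 CPM in Cort. The list's summed level was 1321 to 1982 CPM in Cort, 1240 to 1528 CPM in Vehicle and 1462 to 1567 CPM in Basal, so that Cort 11 and Cort 17 lay below all Basal libraries and Vehicle 23 among them. The median stayed above 0 in every alternative, at 0.18 without Cort 4 and 0.17 without Vehicle 29 and Cort 4, but the number of members higher at an unadjusted p under 0.05 was 8 without Vehicle 29, 10 without Cort 36, 11 without Cort 4, 3 without Vehicle 29 and Cort 4 and 3 without Vehicle 16 and Vehicle 29. The heat map of immediate early genes shows the libraries side by side.

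**Figure D4:**
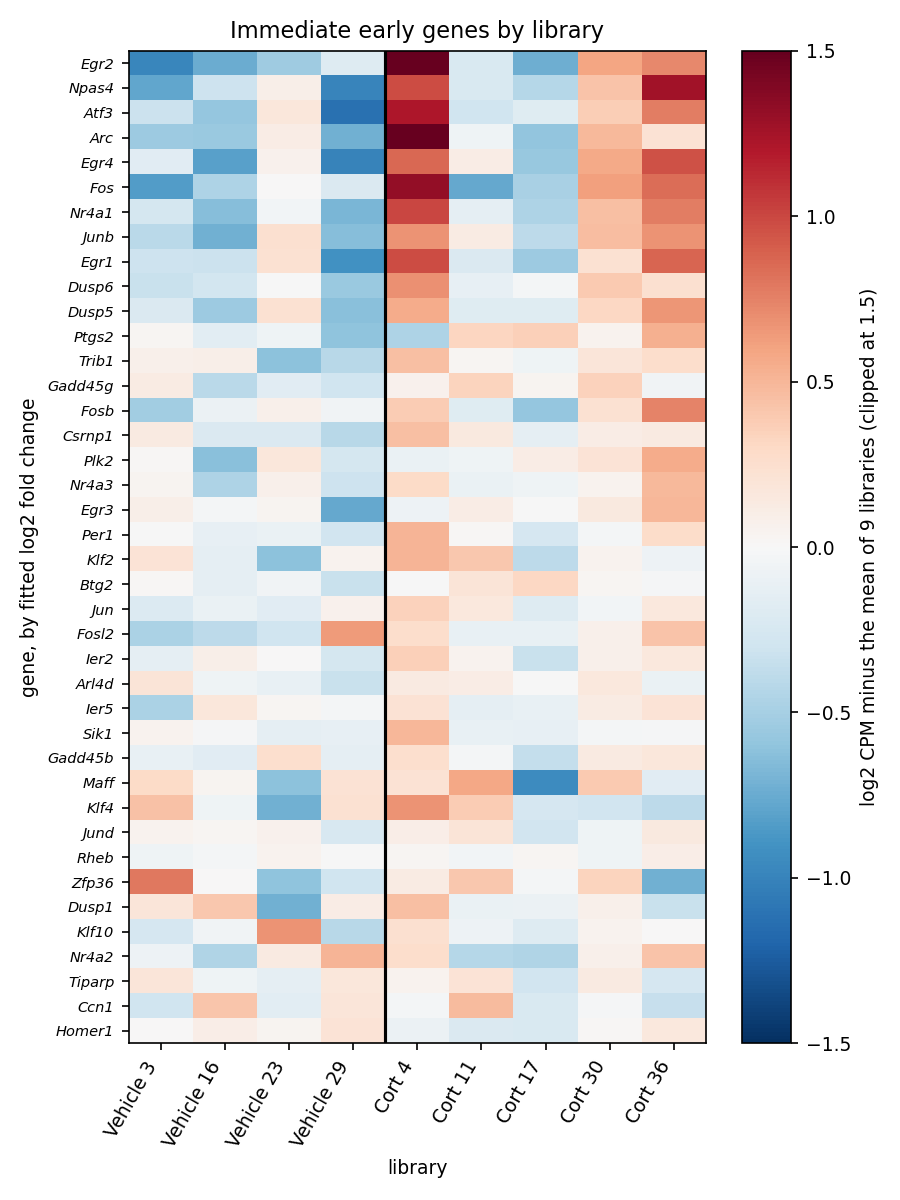
Rows are the immediate early genes, ordered by fitted fold change, and columns the 4 Vehicle and 5 Cort libraries, separated by the black line; colour is log2 CPM minus the gene's mean over the 9 libraries, clipped at 1.5. Cort 4, 30 and 36 are red over the upper rows, while Cort 17 is blue there, like Vehicle 3, 16 and 29. Vehicle 23 and Cort 11 hold both colours there.

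Genes that follow activity later, such as growth factors and synaptic proteins, lay mostly on the same side. Of 25 tested, 7 were higher and 0 lower at an unadjusted p under 0.05, and the median was 0.18. Without Cort 36 there was 1 higher and 1 lower (median 0.09), without Vehicle 29 there were 2 higher (0.10), and with the percent of mitochondrial counts as a covariate 0 (0.06). Synpo, synaptopodin of the dendritic spine, stood at 146, 142, 157 and 123 CPM in Vehicle and 180.0, 162, 161, 165 and 210.2 CPM in Cort, with the groups apart (0.30 ± 0.10, SE, edgeR adjusted p = 0.231). Bdnf, the neurotrophin, was fitted at 0.30 ± 0.13 (SE), and its Basal libraries (60.9 to 74.02 CPM) lay above all Vehicle libraries (30.5 to 50.5 CPM). Bhlhe40, a transcriptional repressor of the clock, was fitted at 0.30 ± 0.12 (SE).

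Circadian clock genes, several of which carry binding sites for the receptor, lay in both directions. Of 22 tested, 5 were higher and 3 lower at an unadjusted p under 0.05, and the median was 0.12. Without Vehicle 16 and Vehicle 29 there were 0 higher and 0 lower, and with the 9 libraries alone 1 higher and 1 lower. Leaving out Cort 36 gave 1 higher and 2 lower, and leaving out Cort 11 gave 6 higher and 4 lower. Per2, a repressor of the clock, stood at 27.6, 25.7, 26.1 and 24.4 CPM in Vehicle and 39.8, 31.8, 26.1, 32.2 and 33.3 CPM in Cort, with Cort 17 among the Vehicle libraries and the other 4 Cort libraries above them (0.33 ± 0.11, SE, edgeR adjusted p = 0.239). Per1, its relative, was fitted at 0.26 ± 0.12 (SE). Npas2, an activator of the clock, was fitted at -0.25 ± 0.10 (SE), and Rora, an activating nuclear receptor that is also a thalamus marker, at -0.65 ± 0.22 (SE), with Vehicle 16 at 140.4 CPM. Of 14 Krüppel-like factors, Klf11 was the member whose libraries separated downward, Klf13 (0.23 ± 0.08, SE) and Klf16 (0.26 ± 0.10, SE) had higher levels at an unadjusted p under 0.05, and the median was 0.07.

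Of 27 glutamate receptor genes, ionotropic and metabotropic, 3 were higher and 5 lower at an unadjusted p under 0.05, with a median of -0.02. Grm2, a presynaptic metabotropic receptor abundant in dentate granule cells, stood at 53.8, 60.2, 56.3 and 30.8 CPM in Vehicle and 72.6, 76.3, 66.7, 70.8 and 73.2 CPM in Cort (0.52 ± 0.14, SE, edgeR adjusted p = 0.156). The groups were apart, and Vehicle 29, the library with the fewest dentate markers, was far below the others. Grm3, the metabotropic receptor also found in astrocytes, lay at 41.0 to 53.9 CPM in Vehicle and 29.5 to 40.8 CPM in Cort, again apart (-0.41 ± 0.14, SE). Gria4, an AMPA receptor subunit, was fitted at -0.36 ± 0.10 (SE), and Grm8, another metabotropic receptor, at -0.74 ± 0.23 (SE), both with Vehicle 29 highest.

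Of the 12 tested subunits of the GABA-A receptor, 0 were higher and 5 lower at an unadjusted p under 0.05, 10 had a fitted level below Vehicle, and the median was -0.13. Gabra3 stood at 48.5, 65.8, 45.01 and 117 CPM in Vehicle and 49.9, 41.5, 39.9, 45.97 and 39.02 CPM in Cort (-0.68 ± 0.18, SE, edgeR adjusted p = 0.167). Vehicle 29 stood far above all others, and Vehicle 3 and Vehicle 23 lay inside the Cort range. Gabrg1 was fitted at -0.56 ± 0.20 (SE). Without Vehicle 29 the list's median was -0.13 and 1 member was lower at an unadjusted p under 0.05.

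Signalling, channel and peptide genes showed no common direction. Of 14 calmodulin-dependent kinases and their inhibitors, 5 were higher and 3 lower at an unadjusted p under 0.05, with a median of 0.10 (0.02 without Vehicle 29 and 0.05, with 1 higher, without Cort 36). Dapk1, the death-associated kinase, stood at 238, 202, 226 and 158 CPM in Vehicle and 252, 259.5, 260.3, 257 and 298 CPM in Cort, with the groups apart (0.36 ± 0.09, SE), whereas Camk2d, a CaMKII subunit, was fitted at -0.46 ± 0.14 (SE). Of 37 potassium channel genes 3 were higher and 2 lower, with a median of 0.02; Kcnc2, a channel of fast-spiking cells, was fitted at -0.42 ± 0.11 (SE). Of 26 neuropeptide and receptor genes 4 were higher and 4 lower, with a median of 0.05, among them Pdyn, the dynorphin precursor (0.37 ± 0.14, SE), and Tac1, the substance P precursor (-0.55 ± 0.18, SE). Of 29 RNA-binding splicing regulators Rbm24 passed, 3 were higher and 2 lower at an unadjusted p under 0.05, and the median was 0.03; Rbm38, a close relative of Rbm24, stood at 2.63 to 3.89 CPM in Cort and 1.23 to 2.90 CPM in Vehicle (0.60 ± 0.20, SE), and Elavl2, a relative of Elavl4, was fitted at -0.25 ± 0.11 (SE).

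Metabolic and stress lists followed single libraries in part. Of 23 genes of cholesterol synthesis and uptake, 0 were higher and 5 lower at an unadjusted p under 0.05, with a median of -0.14 (-0.06 with 2 lower without Vehicle 29, -0.06 without Vehicle 23, and without Cort 30 and without Cort 36 -0.07, with 3 and 2 lower); Insig1, which holds back the sterol-sensing machinery, was fitted at -0.24 ± 0.08 (SE). Of 20 heat shock and ER chaperone genes, 4 were higher and 0 lower, with a median of 0.22, and 0 were higher with a median of 0.03 without Cort 4. Hspa1b stood at 6.97, 4.98, 7.64 and 5.01 CPM in Vehicle and 22.2, 8.25, 5.68, 6.72 and 9.15 CPM in Cort, Cort 4 far above the rest (0.76 ± 0.30, SE); its near-identical copy Hspa1a was fitted at 0.66 ± 0.27 (SE), and reads of the pair can be split between them. Of 18 genes of mTOR brakes and FoxO signalling, 0 were higher and 3 lower, with a median of 0.03.

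All 13 mitochondrially encoded genes had a lower fitted level in Cort, 2 of them at an unadjusted p under 0.05, and the median was -0.50. Their summed level was 33921 to 65107 CPM in Cort and 51545 to 85217 CPM in Vehicle, so that the groups overlapped. mt-Nd4l, a subunit of respiratory complex I, was fitted at -0.65 ± 0.28 (SE). The median kept its direction without each library in turn.

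Markers of hippocampal fields differed with the same libraries. Of 20 dentate gyrus markers, 9 were higher and 0 lower at an unadjusted p under 0.05, with a median of 0.22. Lct stood at 105, 87.01, 107 and 26.5 CPM in Vehicle and 138, 117.8, 134, 148 and 165 CPM in Cort, Vehicle 29 far below the rest (0.79 ± 0.24, SE, edgeR adjusted p = 0.214). The groups were apart without that library too, since the other 3 Vehicle libraries ended at 107 CPM and the Cort libraries began at 117.8 CPM. Maml2, a Notch coactivator, stood at 46.9, 46.7, 39.6 and 33.5 CPM in Vehicle and 50.9, 64.02, 59.04, 56.7 and 63.9 CPM in Cort (0.50 ± 0.15, SE), also apart. Dsp, desmoplakin, was fitted at 0.61 ± 0.20 (SE) and Npnt, nephronectin, at 0.28 ± 0.09 (SE). Without Vehicle 29 the number higher at an unadjusted p under 0.05 was 6, with a median of 0.15, and without Vehicle 16 and Vehicle 29 it was 4, with a median of 0.15.

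Of 15 CA1 markers, 2 were higher and 3 lower, with a median of 0.14. Without Vehicle 16, the library with the lowest CA1 markers, 0 were higher and 5 lower and the median turned to -0.04, and without Vehicle 16 and Vehicle 29 it was -0.13. Lefty1, a Nodal inhibitor, was fitted at 0.59 ± 0.24 (SE). Of 17 CA3 and CA2 markers, 2 were higher and 1 lower, with a median of 0.23 and of 0.01 without Vehicle 29; Amigo2, a CA2 and CA3 adhesion protein, was fitted at 0.48 ± 0.15 (SE) and Rgs14, a CA2 signalling regulator, at 0.45 ± 0.17 (SE). Of 17 thalamus markers, 0 were higher and 3 lower, with a median of -0.44 that turned to 0.13 without Vehicle 16 and to 0.79 without Vehicle 3 and Vehicle 16. Tnnt1 stood at 1.86, 20.3, 0.725 and 1.13 CPM in Vehicle, so that Vehicle 16 alone carried its fold change (-1.90 with all libraries, 0.37 without that one), and Foxp2 was fitted at -1.13 ± 0.43 (SE). Of 18 neocortex markers, 1 was higher and 4 lower, with a median of -0.14 that turned to 0.02 without Vehicle 16 and to 0.13 without Vehicle 16 and Vehicle 29; Ccn2 stood at 2.38, 4.82, 1.45 and 12.9 CPM in Vehicle and 2.15, 2.33, 2.89, 2.08 and 1.23 CPM in Cort. The plot of list scores shows these libraries.

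**Figure D5:**
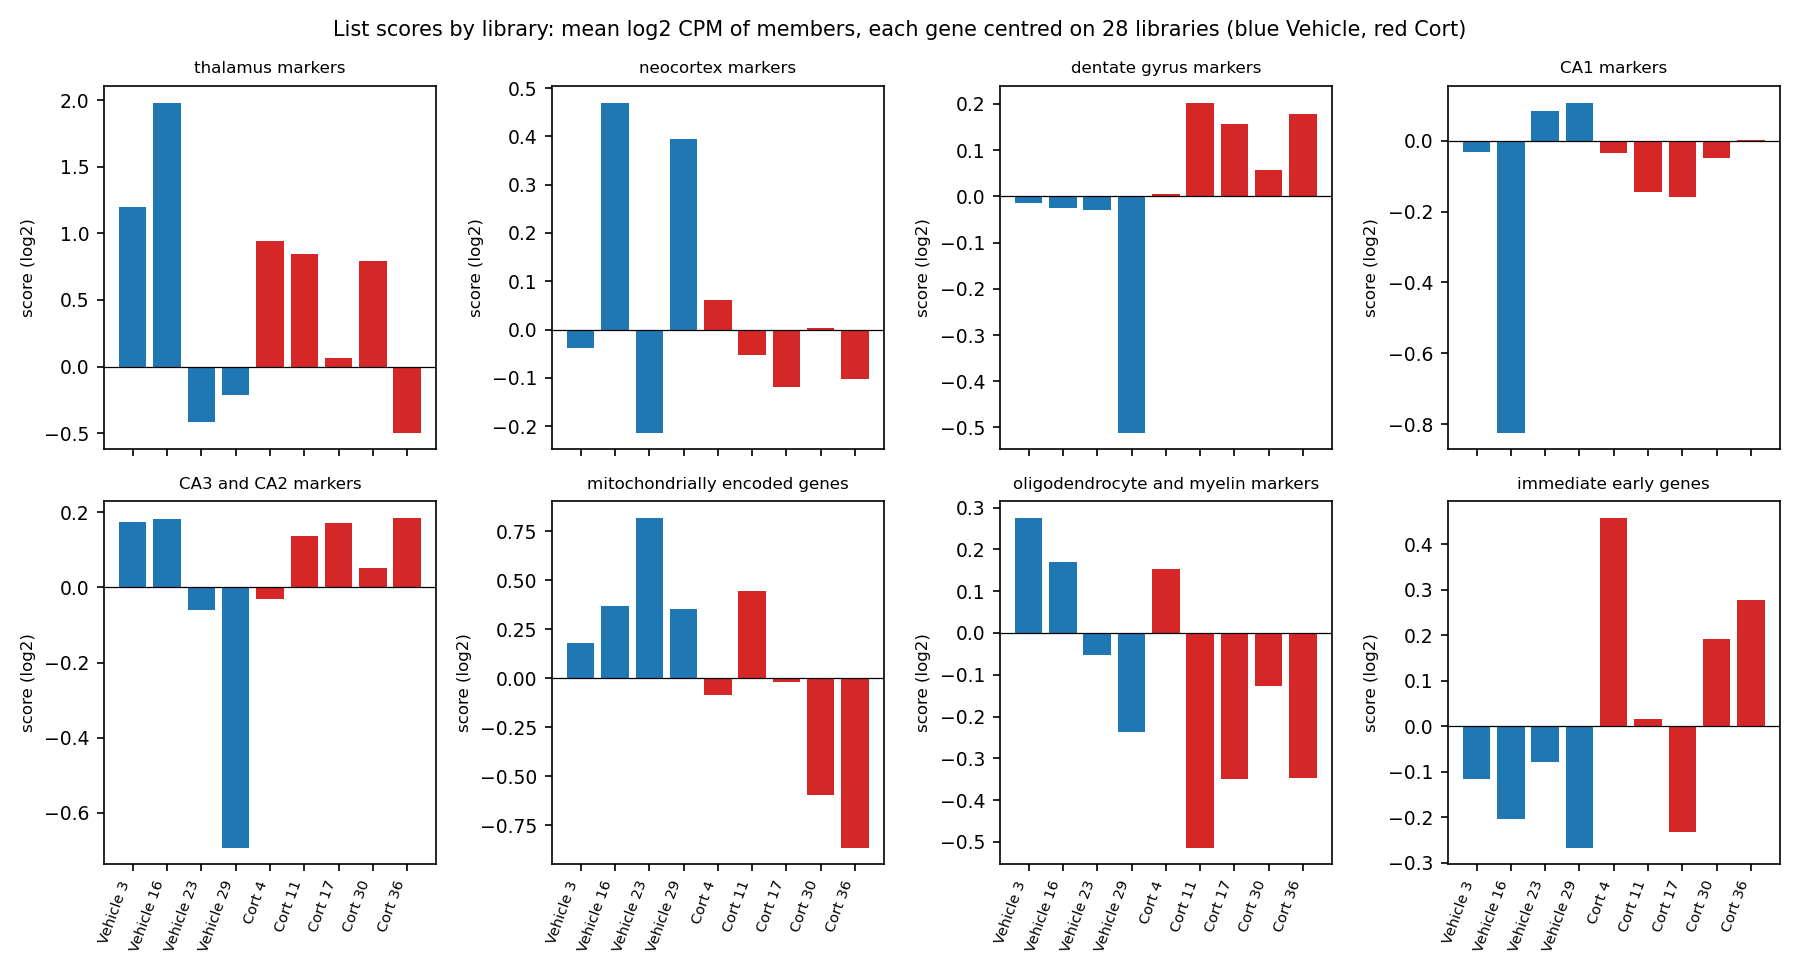
Bars give each library's score (mean log2 CPM of a list's members, each gene centred on all 28 libraries; y axes differ) for 8 lists, Vehicle in blue and Cort in red. Vehicle 29 reaches -0.51 for dentate gyrus markers, Vehicle 16 -0.82 for CA1 markers and 1.98 for thalamus markers, and both are highest for neocortex markers; Cort 4 is highest for immediate early genes at 0.46.

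Glial markers mostly had lower fitted levels in Cort. All 22 oligodendrocyte and myelin markers had a lower fitted level, 0 were higher and 7 lower at an unadjusted p under 0.05, and the median was -0.25. Ugt8a, a myelin lipid enzyme, stood at 84.8, 82.2, 62.5 and 60.6 CPM in Vehicle and 68.6, 39.8, 43.5, 56.6 and 47.5 CPM in Cort (-0.50 ± 0.20, SE), with Cort 4 inside the Vehicle range. Pdgfra, the receptor of oligodendrocyte precursors, was fitted at -0.28 ± 0.10 (SE). The summed level was 4718 to 8388 CPM in Cort and 5407 to 8149 CPM in Vehicle, with Cort 4 highest of all 9, and without Vehicle 3 and Vehicle 16 the median was -0.08 and 8 members lay above 0. The number lower at an unadjusted p under 0.05 was 1 without Vehicle 3, 1 without Vehicle 16 and 10 without Vehicle 29. That number was 2 without Cort 11, 4 without Cort 36 and 13 without Cort 4. It was 3 without Vehicle 16 and Vehicle 29, and 1 with the dentate gyrus score as a covariate. It was 18 without Vehicle 29 and Cort 4, an alternative chosen after seeing the data.

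Of 18 microglia and macrophage markers 2 were lower and 0 higher at an unadjusted p under 0.05, both apart between the groups, and the median was -0.18. Cx3cr1, the fractalkine receptor, stood at 38.5, 38.3, 37.3 and 39.9 CPM in Vehicle and 27.01, 28.7, 31.6, 27.2 and 26.1 CPM in Cort. The Vehicle libraries were nearly equal, the Cort libraries all lay below them, and the Basal libraries lay above both at 48.2 to 57.8 CPM (-0.45 ± 0.13, SE, edgeR adjusted p = 0.203). P2ry12, a purine receptor of resting microglia, ran from 27.83 to 34.9 CPM in Vehicle and from 16.2 to 27.77 CPM in Cort (-0.49 ± 0.21, SE). Of 20 astrocyte markers 19 had a lower fitted level and 1, the glutamate transporter Slc1a2 (-0.33 ± 0.15, SE), was lower at an unadjusted p under 0.05, with a median of -0.14. The astrocyte median was -0.07 without Cort 36, 0.002 with the dentate gyrus score as a covariate (10 of 20 above 0) and 0.09 with the percent of mitochondrial counts (14 of 20 above 0). The microglia median was -0.12 without Cort 36, -0.04 with the dentate gyrus score and 0.04 with the mitochondrial percent (11 of 18 above 0).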

How the data were processed

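The authors deposited raw gene counts (Ensembl identifiers) from HTSeq 0.6.1 on the build mm10, per the submitters' processing notes, which also name FastQC and MultiQC. Which aligner and annotation were used is not given in the sources used here. Per the labels, RNA came from snap-frozen dissected hippocampus, and libraries were stranded and read from both ends. The 5 summary rows that name no gene (13.8% to 19.5% of all counts in the 9 libraries) were left out of library sizes and tests, and 0 columns lacked a sample. Replicates differed by more than counting noise (lowest chi-square per degree of freedom 7.06).

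edgeR 4.0.16 (R 4.3.3) fitted all 28 libraries in 6 groups by quasi-likelihood (robust, 22 residual degrees of freedom) after filterByExpr (minimum count 10, minimum total 15), which left 16735 of 50686 genes. Tests were two-sided, with Benjamini-Hochberg adjustment over all of them at 0.05. Standard errors are the fold change over the root of F, and fold changes are Cort over Vehicle. DESeq2 1.42.0 and limma 3.58.1 served as alternatives. On data simulated for this comparison (16599 genes), 63 of 100 genes changed 1.5-fold and 88 of 100 changed 2-fold were recovered, with 9 false calls. The simulation drew each gene independently, with no shift shared by the genes of a library. It changed 200 genes at once, all of at least 1 CPM, so it does not give the recovery in these libraries. Coordinates are from GENCODE M21 (GRCm38).

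The members, lists and tests were chosen with earlier results of these data known. Named genes are those that passed, the 12 of smallest p in each direction whose mean reached 1 CPM and whose symbol is established, up to 4 per list by p, and a fixed set of hormone and activity genes; 1 gene of the lists that the rule names is not reported here. No gene list was tested as a set.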

Additional observations from a re-analysis of the deposited data

Results flagged for a closer look

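Within each group of 4 or 5 libraries, a library was singled out where its gap to the nearest other, over the whole range, exceeded Dixon's 95% critical value. Of 248 groups checked over named genes and list scores, 15 had such a library, and chance alone gives about 1 in 20.

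Vehicle 29 held 6 of them. Its dentate gyrus score was -0.51, with -0.03 to -0.01 in the other Vehicle libraries, and its GABA-A score was 0.16, with 0.03 to 0.05 in the others. Lct stood at 26.5 CPM in it (87.0 to 107 CPM in the others), Grm2 at 30.8 CPM (53.8 to 60.2 CPM), Cebpd at 3.79 CPM (6.93 to 7.81 CPM) and Ppargc1a, here the highest, at 55.3 CPM (38.9 to 40.1 CPM). Lct and Grm2 are both enriched in dentate granule cells.

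Cort 36 also held 6. Its microglia score was -0.39 (0.05 to 0.08 in the other Cort libraries), its immature neuron score -0.28 (0.07 to 0.21), its interneuron score 0.30 (-0.14 to -0.04) and its score for later activity genes 0.27 (-0.07 to 0.01). Ncoa1 stood at 272 CPM in it (214 to 224 CPM in the others) and Dapk1 at 298 CPM (252 to 260 CPM).

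Vehicle 16 had a CA1 score of -0.82 (-0.03 to 0.11 in the other Vehicle libraries) and the highest Npnt level, 53.8 CPM (44.8 to 46.0 CPM). Cort 4 had a heat shock score of 0.70, with -0.13 to 0.08 in the other Cort libraries.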

How the results depend on the processing

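No paired analysis was possible because no sample number in the titles occurs in both groups. The count of called genes, 1 in the fit reported, was 3 without a filter on low counts, 2 with a filter at 1 CPM, 0 with the 9 libraries alone in the fit and 85 in DESeq2. It was 15 without Vehicle 3 and Vehicle 16, 0 without Vehicle 16 and Vehicle 29, 2 with thalamus and neocortex scores as covariates, 0 with the dentate gyrus score and 10 with the sample number as covariate. Leaving out each library in turn gave 0 (Vehicle 29, Cort 4 or Cort 30) to 170 (Vehicle 23), with 40 without Vehicle 3. In alternatives chosen after seeing the data it was 0 without Vehicle 29 and Cort 4 and 0 with the percent of mitochondrial counts as covariate. The number at an unadjusted p under 0.05, 1947 in the fit reported, was 518 without Vehicle 16 and Vehicle 29, 972 with thalamus and neocortex scores, 1264 without Vehicle 29 and Cort 4 and 1140 with the mitochondrial percent. It ran from 1015 (without Vehicle 29) to 2474 (without Vehicle 23) on leaving out each library, with 1276 without Cort 36. Rbm24 kept its direction in all 22 alternatives, and its adjusted p was also above 0.05 without Vehicle 16 and Vehicle 29 (0.67), without Vehicle 29 and Cort 4 (0.351), with the dentate gyrus score (0.373) and with the mitochondrial percent (0.0769). The cause was not tested.

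Of 91 genes named, 83 kept their direction in every alternative. The 8 others reversed as follows. Without Vehicle 16 and Vehicle 29 the log2 fold change was 0.15 for Ccn2, 0.057 for Hif3a, -0.12 for Nr3c2, 0.30 for Tnnt1 and 0.034 for Tsc22d3. Without Vehicle 3 and Vehicle 16 it was 0.36 for Foxp2, 0.16 for Sgk1 and 0.79 for Tnnt1. With the dentate gyrus score it was -0.022 for Nr3c2 and 0.013 for Tsc22d3, and with the mitochondrial percent 0.27 for Hif3a, 0.059 for Sgk1 and 0.091 for Tsc22d3. Without Vehicle 29 and Cort 4 it was 0.030 for Hif3a and -1.25 for Ttr, and limma-voom gave -0.27 for Ttr. On leaving out each library in turn it ran from -0.17 to 0.023 for Hif3a, -0.16 to 0.071 for Sgk1, -2.31 to 0.37 for Tnnt1, -0.23 to 0.005 for Tsc22d3 and -0.998 to 1.38 for Ttr. None of these 8 genes passed in the fit reported. How far depth limits single genes was not tested.

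On leaving out each library in turn, the median fold change of 21 of 33 gene lists kept its sign and that of 12 did not. Besides the CA1, thalamus, neocortex and meningeal fibroblast markers, these were choroid plexus and ependyma markers (-0.485 to 0.962), red blood cell markers (-0.146 to 0.106), interferon-stimulated genes (-0.124 to 0.053), pericyte and smooth muscle markers (-0.165 to 0.027), splicing regulators (-0.032 to 0.044), mTOR brakes (-0.018 to 0.056), neuropeptides (-0.006 to 0.092) and potassium channels (-0.023 to 0.050).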

Other observations

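Lists not described so far gave few differences between Cort and Vehicle. Of 15 choroid plexus and ependyma markers 0 were higher and 0 lower at an unadjusted p under 0.05, and their summed level ran from 56.8 to 1723 CPM in Cort and from 55.6 to 990.3 CPM in Vehicle. Ttr, the transthyretin that choroid plexus secretes, stood at 369, 830.2, 13.8 and 129 CPM in Vehicle 3, 16, 23 and 29 and at 1539, 15.98, 71.02, 558 and 34.1 CPM in Cort 4, 11, 17, 30 and 36. Its log2 fold change was 0.40 ± 1.51 (SE), with a 95% interval from -2.72 to 3.53. Of 20 interferon-stimulated genes 0 were higher and 0 lower, with a median of -0.03.

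Of 20 endothelial markers 18 had a lower fitted level in Cort, with a median of -0.25, yet 0 were lower at an unadjusted p under 0.05. That median was -0.12 without Vehicle 3, -0.13 without Cort 36 (6 of 20 above 0), -0.40 without Cort 4 and -0.01 with the percent of mitochondrial counts as a covariate (10 of 20 above 0). Ocln, occludin of tight junctions, was the 1 member higher, at 11.9, 12.3, 11.7 and 10.1 CPM in Vehicle and 14.7, 13.4, 16.1, 15.5 and 12.7 CPM in Cort, without overlap (0.34 ± 0.12, SE). Of 13 pericyte and smooth muscle markers 0 were higher and 0 lower (median -0.09), of 12 meningeal fibroblast markers 0 were higher and 1 lower (median -0.01, but 0.36 without Vehicle 3, 0.22 without Vehicle 16 and -0.14 without Cort 4), and of 6 red blood cell markers 0 were higher and 0 lower (median 0.03). Of 17 interneuron markers 0 were higher and 1 lower (median -0.05), and of 12 immature neuron markers 1 was higher and 0 lower (median 0.12).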
